A study of Drosophila melanogaster with 2 samples.

Results

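The cell cycle and DNA replication genes described here are 38 genes chosen by their known roles, out of 13945 protein-coding genes annotated on the main chromosome arms of Drosophila melanogaster. The list was drawn up with earlier results of these data known. All 38 symbols matched an Ensembl gene, either directly or through an older name. By role, 13 act in replication licensing, 3 at the replication fork or in nucleotide supply, 12 are cyclins, cyclin-dependent kinases (CDKs) and their regulators, 4 belong to the E2F and retinoblastoma pathway, and 6 act in mitosis. The data were chromatin immunoprecipitation followed by sequencing (ChIP-seq) of CG4854-eGFP, a zinc finger protein with green fluorescent protein fused to its C terminus. Both samples, biological replicates 2 and 3, came from 1 stably transgenic line, were whole embryos of mixed sex aged 0 to 24 hours, and were precipitated with an antibody against GFP. They form 1 group, so there was no condition to compare, and the peak lists of both rest on the same control file. A whole embryo mixes all cell types, in which dividing and resting cells cannot be told apart, and the tagged protein is an added transgene product rather than the untagged protein. Embryos without the tag and RNA levels were not analysed here.

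Before S phase, the origin recognition complex and Cdt1 load the Mcm helicase onto DNA, and geminin holds Cdt1 in check, so that each origin is licensed once per cycle. Pairs of cyclins and CDKs then start replication and mitosis, Cdc25 phosphatases switch the CDKs on, and the anaphase-promoting complex ends mitosis under control of the spindle checkpoint. E2F with its partner Dp switches many of the replication genes on, and the retinoblastoma protein holds E2F back. The early fly embryo divides on maternal products, after which transcription of string sets the time of each division.

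The sequence below the summits is shown first, so that the entries behind the later counts can be read. Each run reaches at most 50 bp to either side of the summit of 1 peak, the position that the authors give as its highest point, on the strand of the gene and 5′ to 3′. The runs are from the RefSeq FASTA of Release 6 (dm6), with coordinates counted from 1, and were cut to bases outside annotated UTRs. The first 5 are at genes of the set kept by the irreproducible discovery rate (IDR), which scores how well ranks repeat between replicates, with 1 weaker entry among them. They begin with Mcm5, a subunit of the Mcm helicase, at chr3R:10788250-10788350 and chr3R:10788450-10788523 on the plus strand, and Cdk1, the kinase that drives mitosis, at chr2L:10386266-10386366 and chr2L:10386475-10386575 on the minus strand. The fifth is CycB3, a mitotic cyclin, at chr3R:24870837-24870937 on the minus strand. The last 4 fell just short of that set: Orc2 at chr3R:13964562-13964662 and Mcm2 at chr3R:8264856-8264956 on the plus strand, the mitotic kinase gene aurA at chr3R:11962989-11963089 on the plus strand, and E2f1 at chr3R:21633339-21633439 on the minus strand. Capitals mark CGATA on either strand, the letters GGTCACACT bound by the factor M1BP, the E-box CACGTG, and, in the second Mcm5 run, AACTATCG read on the other strand.
Mcm5 IDR summit: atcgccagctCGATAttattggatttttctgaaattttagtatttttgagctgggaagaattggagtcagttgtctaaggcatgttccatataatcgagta
Mcm5 weaker summit: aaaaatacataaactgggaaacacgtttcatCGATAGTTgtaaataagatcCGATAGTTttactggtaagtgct
Cdk1 nearer IDR summit: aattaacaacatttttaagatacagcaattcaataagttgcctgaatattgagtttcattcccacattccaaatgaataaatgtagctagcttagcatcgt
Cdk1 farther IDR summit: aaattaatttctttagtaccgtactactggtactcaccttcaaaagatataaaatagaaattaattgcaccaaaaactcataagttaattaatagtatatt
CycB3 IDR summit: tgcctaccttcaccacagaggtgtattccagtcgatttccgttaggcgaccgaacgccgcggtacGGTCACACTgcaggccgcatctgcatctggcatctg
Orc2 summit: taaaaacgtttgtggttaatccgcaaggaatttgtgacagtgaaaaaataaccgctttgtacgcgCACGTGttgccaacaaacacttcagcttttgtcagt
Mcm2 summit: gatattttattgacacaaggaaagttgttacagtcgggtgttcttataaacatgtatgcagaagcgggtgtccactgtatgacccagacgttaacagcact
aurA summit: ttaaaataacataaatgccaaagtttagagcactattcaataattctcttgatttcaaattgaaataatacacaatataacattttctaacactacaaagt
E2f1 summit: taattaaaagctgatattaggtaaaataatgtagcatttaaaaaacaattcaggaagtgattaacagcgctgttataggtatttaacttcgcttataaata

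None of the letters searched was found in all of these runs. Both Cdk1 windows held none of the CGATA, E2F, M1BP or E-box letters and were 30.7% and 23.8% G or C, whereas the CycB3 window was 58.4% G or C and held the M1BP letters. Over the 14 member summits in the IDR set that lay at promoters, G or C content averaged 38.9% ± 8.6 (SD over 14 windows), against 36.9% ± 9.6 over the 1687 promoter summits of all genes in that set.

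In all, 12 of the 38 genes (31.6%) had a summit of the IDR set within 500 bp of a transcription start site (TSS), against 15.8% of all protein-coding genes (2202 of 13945). Genes of every role were among them: dpa, dup and Mcm5 of the licensing genes, RnrS, Cdk1, CycG, dap and CycB3, Dp and Rbf of the E2F pathway, and BubR1 and polo of the mitotic genes. The set held 3106 peaks, which were also the 3106 strongest of the 30000 entries in the list made from both replicates together, called the pooled list here. Each entry carries a signal, the authors' score in their peak caller's own scale, which was used only to rank and describe entries within its list. Signal in the IDR set ran from 95.2 to 1775.6 with a median of 146.0. The read depth behind the lists is unknown here, genes are not replicates of a condition, and 1 group of 2 samples gives no test, so shares are set beside those of all genes without a p-value.

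**Figure D1:**
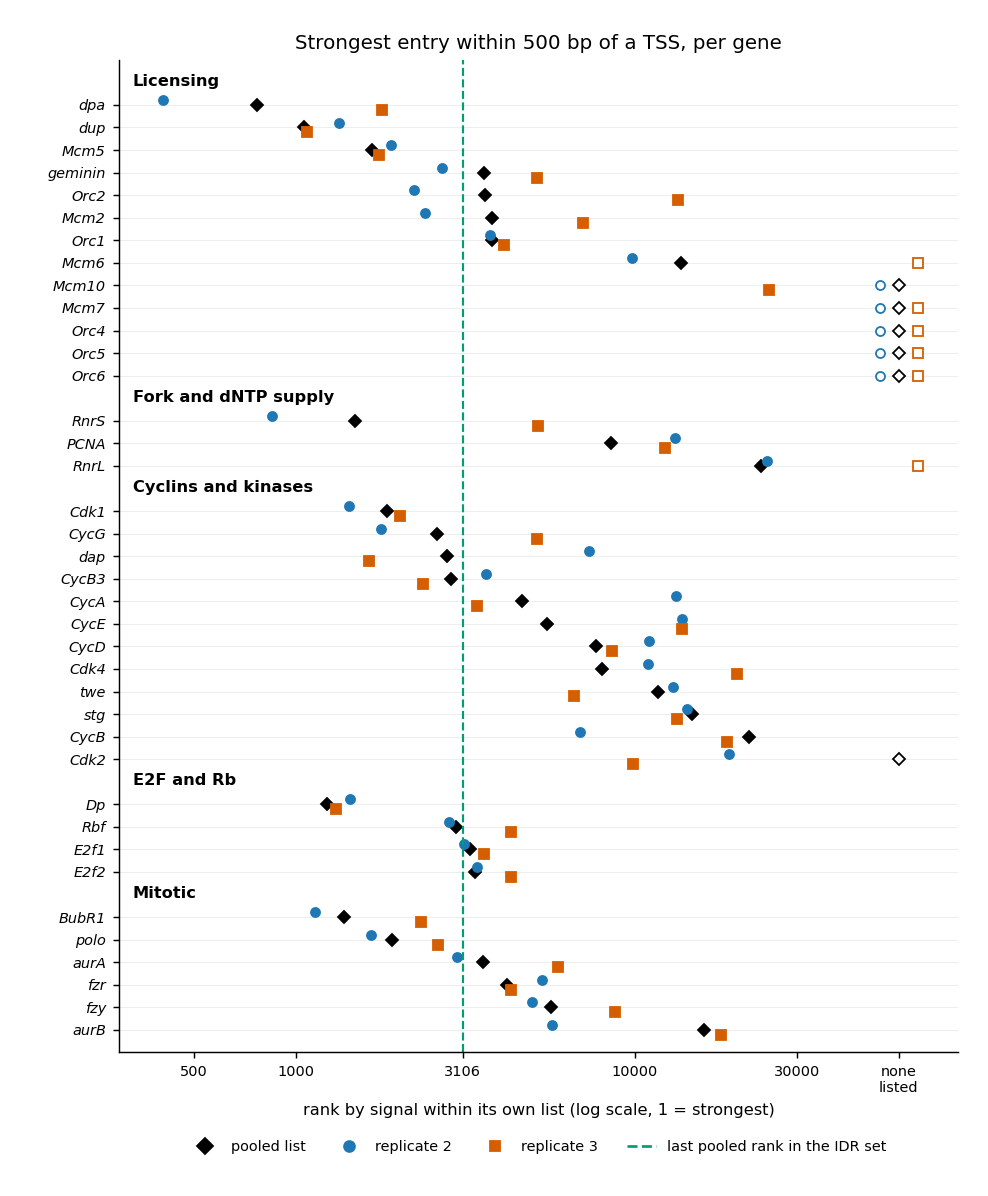
Rank by signal of the strongest entry within 500 bp of a TSS of each of the 38 genes (log axis, 1 is strongest), in the pooled list (diamonds), replicate 2 (circles) and replicate 3 (squares), grouped by role. Open symbols mark a list with no such entry, and the dashed line is the last rank of the IDR set, 3106. Pooled diamonds of 12 genes lie left of the line and those of 7 more lie between it and rank 4000.

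Among the licensing genes the IDR peaks fell at 3 of 13 (23.1%, against 15.8% of all genes), and these included the strongest of the whole list. dpa, which encodes the Mcm4 subunit of the helicase, had a summit with a signal of 213.0 in the pooled list (rank 769), 154.2 in replicate 2 (rank 406) and 69.4 in replicate 3 (rank 1791). The peak (2R, 7499885 to 7500121, dm6) lay in the 5′ UTR, 95 bp before the inner of 2 annotated start sites of dpa. The replicates thus placed it far apart in rank, though within the strongest 3106 in both. The start site of didum, an unconventional myosin gene transcribed the other way, lay 175 bp from this summit, and the outer dpa start lay 2 bp from that of didum.

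dup, which encodes the loading factor Cdt1, had a summit with a signal of 179.1 (rank 1060) in the pooled list, 84.0 (rank 1340) in replicate 2 and 90.6 (rank 1082) in replicate 3. Both replicates placed it alike. The summit (2R, 15380669) was 55 bp from the nearest start of dup and 55 bp from that of SRPK, a splicing factor kinase gene on the other strand. Mcm5, whose sequence is printed above, had 139.2 (rank 1672) in the pooled list, 68.3 (rank 1913) in replicate 2 and 69.9 (rank 1757) in replicate 3. Its summit lay 224 bp upstream of the Mcm5 start but 74 bp from that of Art1, an arginine methyltransferase gene. A rule that gives each peak to the nearest start alone therefore left 2 licensing genes, dpa and dup. There, dup was kept only because its tie with SRPK, at 55 bp each, was settled arbitrarily in its favour.

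The other licensing genes fell into a group just short of the IDR set and a group with little or nothing. geminin, the Cdt1 inhibitor, had a pooled signal of 86.5 (rank 3591), with 54.7 (rank 2704) in replicate 2 and 39.0 (rank 5152) in replicate 3. Orc2, an origin recognition subunit, had 86.2 (rank 3608), with 62.1 (rank 2235) in replicate 2 and 21.8 (rank 13367) in replicate 3. Mcm2, a helicase subunit, had 83.6 (rank 3784), with 58.9 (rank 2410) in replicate 2 and 32.5 (rank 7014) in replicate 3. All 3 were among the strongest 3106 entries of replicate 2 and outside those of replicate 3. Orc1, the largest origin recognition subunit, had 83.5 (rank 3795), with 44.4 (rank 3749) in replicate 2 and 44.3 (rank 4121) in replicate 3. It was near the border in both.

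Below them, the helicase subunit gene Mcm6 had a pooled entry of 35.1 (rank 13673) and 24.9 (rank 9776) in replicate 2, with none in replicate 3. Mcm10, which helps to start the loaded helicase, had only an entry of 14.4 (rank 24795) in replicate 3. Orc4, Orc5, Orc6 and Mcm7 had no entry within 500 bp of a start in any of the 3 lists, which held for 10.5% of the 38 genes, against 39.4% of all genes. Licensing genes therefore supplied all 4 genes of the list with nothing at the promoter, as well as its strongest peaks. An empty promoter was nevertheless no more common among them than among genes at large. In the pooled list, 5 of the 13 licensing genes (38.5%) had no promoter entry, against 49.7% of all genes.

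Of the 3 genes at the fork or in nucleotide supply, only RnrS had an IDR peak. RnrS and RnrL encode the small and large subunits of ribonucleotide reductase, which makes the DNA precursors, and they differed in all lists. RnrS had 149.3 (rank 1495) in the pooled list, 108.2 (rank 853) in replicate 2 and 38.9 (rank 5166) in replicate 3, with the summit 210 bp upstream of its start and 405 bp from that of CG34231. Without replicate 2 it would not be among the strongest 3106. RnrL had 24.4 (rank 23489) in the pooled list and 14.6 (rank 24546) in replicate 2, with none in replicate 3. PCNA, the sliding clamp of the DNA polymerases, had 48.3 (rank 8529) in the pooled list. An IDR peak of 189.5 lay 1087 bp before PCNA, but 9 bp from the start of the ribosomal protein gene RpS18.

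Among the cyclins and kinases, 4 of 12 (33.3%) had an IDR peak at a promoter, none of them among the 1553 strongest peaks. Cdk1 had 2 IDR summits, both printed above. The nearer, 54 bp upstream of its start, had 131.0 (rank 1858) in the pooled list and 65.1 (rank 2034) in replicate 3, with no replicate 2 summit within 100 bp. The farther, at 263 bp, had 120.3 (rank 2138) in the pooled list, 81.2 (rank 1433) in replicate 2 and 42.9 (rank 4369) in replicate 3. Each replicate thus had its stronger Cdk1 entry at a different summit of the pair, and the start of mRpS7, a mitochondrial ribosomal protein gene, lay 346 and 137 bp from them.

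CycG, a cyclin of the G type, had 106.3 (rank 2612) in the pooled list, 71.0 (rank 1788) in replicate 2 and 39.1 (rank 5128) in replicate 3, 30 bp inside an internal start in its 5′ UTR. dap, an inhibitor of the CycE and Cdk2 pair, had 102.1 (rank 2800), with 29.2 (rank 7342) in replicate 2 and 72.0 (rank 1649) in replicate 3, 80 bp downstream of its start. CycB3 had 99.9 (rank 2878), with 45.3 (rank 3638) in replicate 2 and 60.0 (rank 2373) in replicate 3, 71 bp upstream of its start. These 3 lay close to the end of the IDR set, and each was among the strongest 3106 of 1 replicate only, CycG in replicate 2, and dap and CycB3 in replicate 3. CycB3 was near that limit in the other replicate.

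Several well known drivers of the cycle in the embryo had weaker entries. string (stg), the Cdc25 phosphatase that times embryonic divisions, had 33.4 (rank 14753), with best entries of 20.1 (rank 14276) in replicate 2 and 21.8 (rank 13325) in replicate 3, and twe, the Cdc25 phosphatase of the germ line, had 38.8 (rank 11740). CycE, the S phase cyclin, had 65.0 (rank 5513) at a pooled summit that neither replicate matched within 100 bp. Its best promoter entries were 20.6 (rank 13752) in replicate 2 and 21.4 (rank 13743) in replicate 3. In an intron 646 bp from a start, CycE had a stronger entry of 76.0 (rank 4395). That entry had 62.3 (rank 2227) in replicate 2 and 15.8 (rank 21856) in replicate 3. The kinase partner of CycE, Cdk2, had no pooled entry but weak ones of 17.1 (rank 18952) in replicate 2 and 26.2 (rank 9906) in replicate 3. CycA had 73.3 (rank 4637) in the pooled list, and its best entries were 21.1 (rank 13182) in replicate 2 and 49.6 (rank 3423) in replicate 3. The G1 pair CycD and Cdk4 had 51.9 (rank 7664) and 50.5 (rank 7995). CycB, a mitotic cyclin, had 25.7 (rank 21784) at a pooled summit that neither replicate matched within 100 bp. Its best promoter entries were 30.3 (rank 6883) in replicate 2 and 17.6 (rank 18720) in replicate 3. No cyclin or kinase gene had its strongest promoter entry between ranks 3107 and 4000. That zone took 3.54% of all genes, a share too low for 12 genes to show a difference.

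All 4 genes of the E2F pathway had a promoter entry of rank 3377 or better in the pooled list. Dp, the dimer partner of E2F, had 165.0 (rank 1237) in the pooled list, 80.8 (rank 1448) in replicate 2 and 81.8 (rank 1310) in replicate 3, in an intron 203 bp before an internal start. A second IDR summit, 392 bp past the same start, had 142.1 (rank 1617), 76.1 (rank 1602) in replicate 2 and 67.5 (rank 1886) in replicate 3. Both were alike in the replicates, whereas the outermost start of Dp had only an entry of 89.4 (rank 3414) in the pooled list. With 1 start per gene in place of every annotated one, Dp and CycG therefore lost their promoter peaks.

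Rbf, the fly retinoblastoma protein gene, had 97.7 (rank 2977), with 53.2 (rank 2831) in replicate 2 and 43.2 (rank 4314) in replicate 3, 243 bp upstream of its start. It was the weakest of the 14 summits and left the strongest 3106 without replicate 2. E2f1, the activating E2F, had 91.8 (rank 3261) in the pooled list and 49.7 (rank 3141) in replicate 2, with no replicate 3 summit within 100 bp. The best replicate 3 entry at an E2f1 promoter, 48.0 (rank 3599), matched another pooled summit, 524 bp from a start. E2f2, the repressing E2F, had 90.1 (rank 3377), with 47.1 (rank 3430) in replicate 2 and 43.2 (rank 4312) in replicate 3, and its summit was 18 bp from the start of Mpp6. Both E2F genes were just below the IDR set in the pooled list and outside the strongest 3106 of each replicate.

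Among the 6 mitotic genes, 2 (33.3%) had an IDR peak. BubR1, a kinase of the spindle checkpoint, had 155.7 (rank 1386) in the pooled list, 91.7 (rank 1138) in replicate 2 and 60.5 (rank 2337) in replicate 3, with its summit 137 bp upstream of the start and no other gene's start within 500 bp. polo, a kinase of mitotic entry and spindle assembly, had 128.6 (rank 1924), with 74.0 (rank 1671) in replicate 2 and 56.9 (rank 2629) in replicate 3, 95 bp before an inner start in its 5′ UTR. Both were among the strongest 3106 in each replicate. aurA, a kinase of the centrosome and spindle, had 86.9 (rank 3565), with 51.2 (rank 2998) in replicate 2 and 35.9 (rank 5920) in replicate 3. The activators of the anaphase-promoting complex, fzr and fzy, had 78.5 (rank 4194) and 63.8 (rank 5673). The chromosomal passenger kinase gene aurB had 31.7 (rank 15988), with best entries of 34.2 (rank 5680) in replicate 2 and 18.1 (rank 17897) in replicate 3.

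Set side by side, the shares of 23.1% for licensing genes, 33.3% for cyclins and kinases and 33.3% for mitotic genes each rested on 4 genes or fewer, and the differences between them were not tested. Their order depended on the list. Among the strongest 3106 entries of replicate 2 there were 6 licensing, 2 cyclin or kinase and 3 mitotic genes, and among those of replicate 3 there were 3, 3 and 2. Over the whole list these entries covered 14 genes in replicate 2 (36.8%, against 16.5% of all genes) and 9 in replicate 3 (23.7%, against 15.3% of all genes). The listed genes found in both replicates were dup, dpa, Mcm5, Cdk1, Dp, BubR1 and polo (18.4%, against 11.6% of all genes). A further 7 were found only in replicate 2 (18.4%, against 4.86% of all genes) and 2, dap and CycB3, only in replicate 3 (5.26%, against 3.72%).

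The zone just below the IDR set held more of the listed genes than of genes at large. The strongest pooled entry at the promoter ranked between 3107 and 4000 at 7 of the 38 genes (18.4%), against 493 of all 13945 (3.54%). These were the licensing genes geminin, Orc2, Mcm2 and Orc1, both E2F genes and aurA, with signals from 83.5 to 91.8. With the 4000 strongest pooled entries in place of the IDR set, a limit chosen after seeing the data, 19 of the 38 genes had a promoter entry, against 19.3% of all genes, and licensing genes had 7 of 13 (53.8%). Of the 7 genes between ranks 3107 and 4000, geminin, Orc2, Mcm2 and aurA were among the strongest 3106 of replicate 2. None of the 7 was among those of replicate 3.

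**Figure D2:**
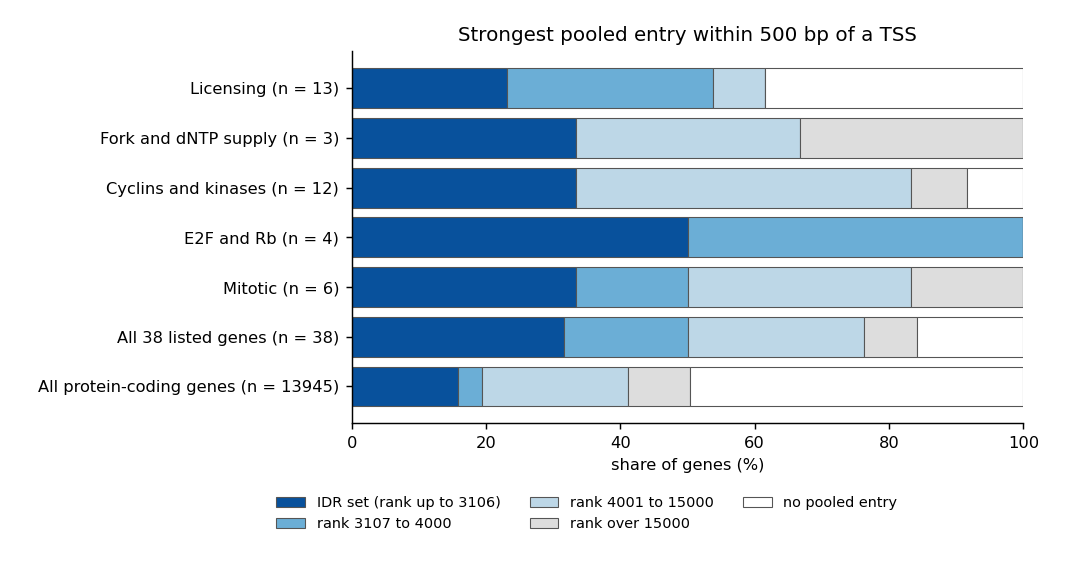
Share of genes (%) by the pooled rank of the strongest entry within 500 bp of a TSS, for each role, for all 38 listed genes and for all 13945 protein-coding genes. The IDR set takes 31.6% of the listed genes and 15.8% of all genes, and the class between ranks 3107 and 4000 takes 18.4% and 3.54%.

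Entries of any strength were widespread at these promoters. The pooled list had an entry within 500 bp of a start at 32 of the 38 genes (84.2%), against 50.3% of all genes. In replicate 2 there were 33 (86.8%, against 50.1% of all genes) and in replicate 3 there were 32 (84.2%, against 52.6% of all genes). All 3 lists had one at 30 genes (78.9%, against 41.2% of all genes). These lists reach far down in rank, and the expression level or open chromatin of the genes was not measured here, so its part in these shares was not tested.

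The peaks of the listed genes were of moderate strength. The 14 summits had a median signal of 135.1, against 149.7 for the 1687 promoter summits of all genes in the IDR set, whose quartiles were 114.7 and 222.9, and 4 of the 14 were above that median. dpa, the strongest, was exceeded by 639 of the 2202 genes with an IDR promoter peak (29.0%). Of the 12 listed genes, 5 (41.7%) had a peak among the 1553 strongest, against 55.7% of the 2202.

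**Figure D3:**
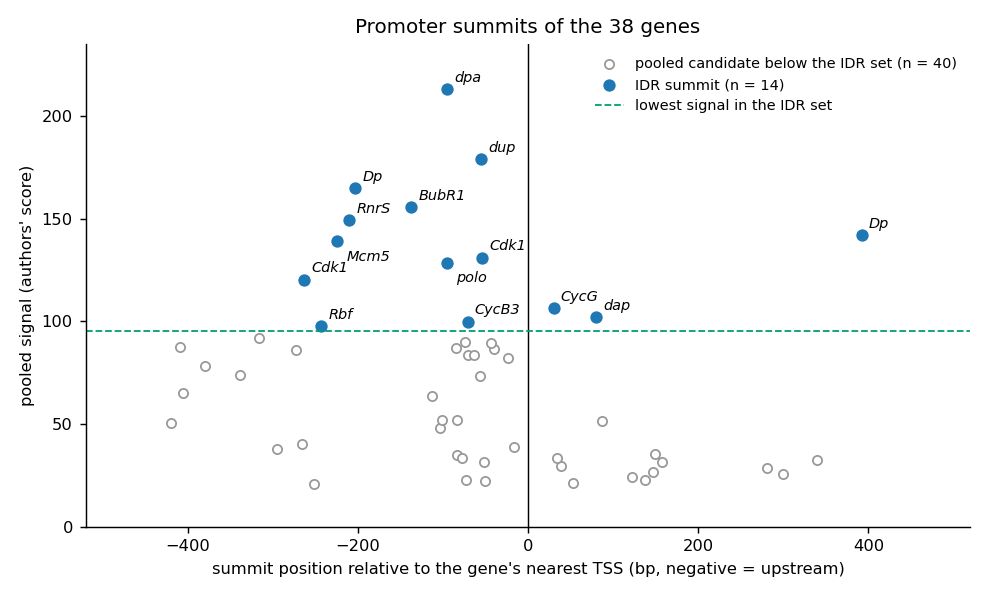
Pooled signal (the authors' score) of each summit within 500 bp of a TSS of the 38 genes, against its position relative to the nearest start of the gene (bp, negative is upstream). Filled points are the 14 IDR summits, labelled by gene, open points the 40 weaker entries, and the dashed line the lowest signal of the IDR set, 95.2. Of the 14 IDR summits, 11 lie upstream.

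The IDR summits of the listed genes lay close to the start, mostly upstream of it. Of the 14, 11 (78.6%) were upstream, against 87.0% of the 2391 pairs of a gene and an IDR promoter summit. The distance to the start had a median of 116 bp (30 to 392), against 133 bp for all pairs. In 13 of the 14 cases both replicates had a summit within 100 bp, against 94.5% of all IDR peaks (2936 of 3106), and the exception was the nearer Cdk1 summit. The farthest inside the 500 bp limit was the second Dp summit, at 392 bp, and the nearest outside it was one at Cdk4, at 625 bp.

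Promoters that face another gene take a share of these peaks. A start of a protein-coding gene on the opposite strand, pointing away, lay within 500 bp at 14 of the 38 genes (36.8%), against 27.4% of all genes. Of these 14, 6 (42.9%) had an IDR promoter peak at any of their starts, against 31.8% of all genes with such a partner. These 6 were dup, dpa, Mcm5, Cdk1, CycG and Dp. The peaks of CycG and Dp, however, lay at internal starts, with no other gene's start within 500 bp, and so not at the facing promoter. Of the 24 genes without one, 6 had a peak, against 9.75% of all genes without one. The peaks of dpa, dup, RnrS, Mcm5 and Cdk1 lay within 500 bp of another gene's start, and which gene of a pair such a peak belongs to was not tested. By chromosome arm, IDR promoter peaks fell at 6 of 13 listed genes on 2R, against 427 of all 2852 genes on that arm. They fell at 3 of 9 on 3R (against 17.4% of all genes there), 1 of 9 on 2L (16.4%), 1 of 3 on 3L (17.5%) and 1 of 4 on X (11.7%).

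Away from promoters, IDR peaks were as common at these genes as at others. A summit elsewhere in the gene was found at 2 of the 38 (5.26%), against 5.36% of all genes. The first was in an intron of E2f1 (3R, 21627813 to 21628216), 4678 bp from the nearest start, with 121.7 (rank 2093) in the pooled list, 59.4 (rank 2378) in replicate 2 and 59.7 (rank 2398) in replicate 3. It was thus stronger than the E2f1 promoter entry, in a gene 40568 bp long with 28 pooled entries away from its starts. The second was in an intron of Cdk4 (2R, 16583868 to 16584271), 3237 bp from a start, with 102.4 (rank 2780), 38.8 (rank 4659) in replicate 2 and 53.6 (rank 2955) in replicate 3. Pooled entries elsewhere in the gene were found at 15 of the 38 (39.5%), against 29.0% of all genes. The median gene length was 2881 bp for the 38, against 2166 bp for all genes.

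Around the genes, 25 IDR summits lay within 5 kb outside 17 of the 38, and 23 of them were nearer to a start of some other gene. The exceptions were at CycB and Cdk4. The CycB summit (2R, 22802948) was 573 bp past the end of the gene and 3355 bp from its nearest start, with a signal of 678.3 (rank 56) in the pooled list, 349.5 (rank 62) in replicate 2 and 319.0 (rank 61) in replicate 3. Among all entries described here for the 38 genes, it was the strongest with no other gene's start nearer, while the CycB promoter itself had 25.7. The Cdk4 summit lay 625 bp upstream of the first start, with 149.8 (rank 1482), 87.7 (rank 1233) in replicate 2 and 62.1 (rank 2230) in replicate 3, and a 1000 bp window would make it a promoter peak.

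**Figure D4:**
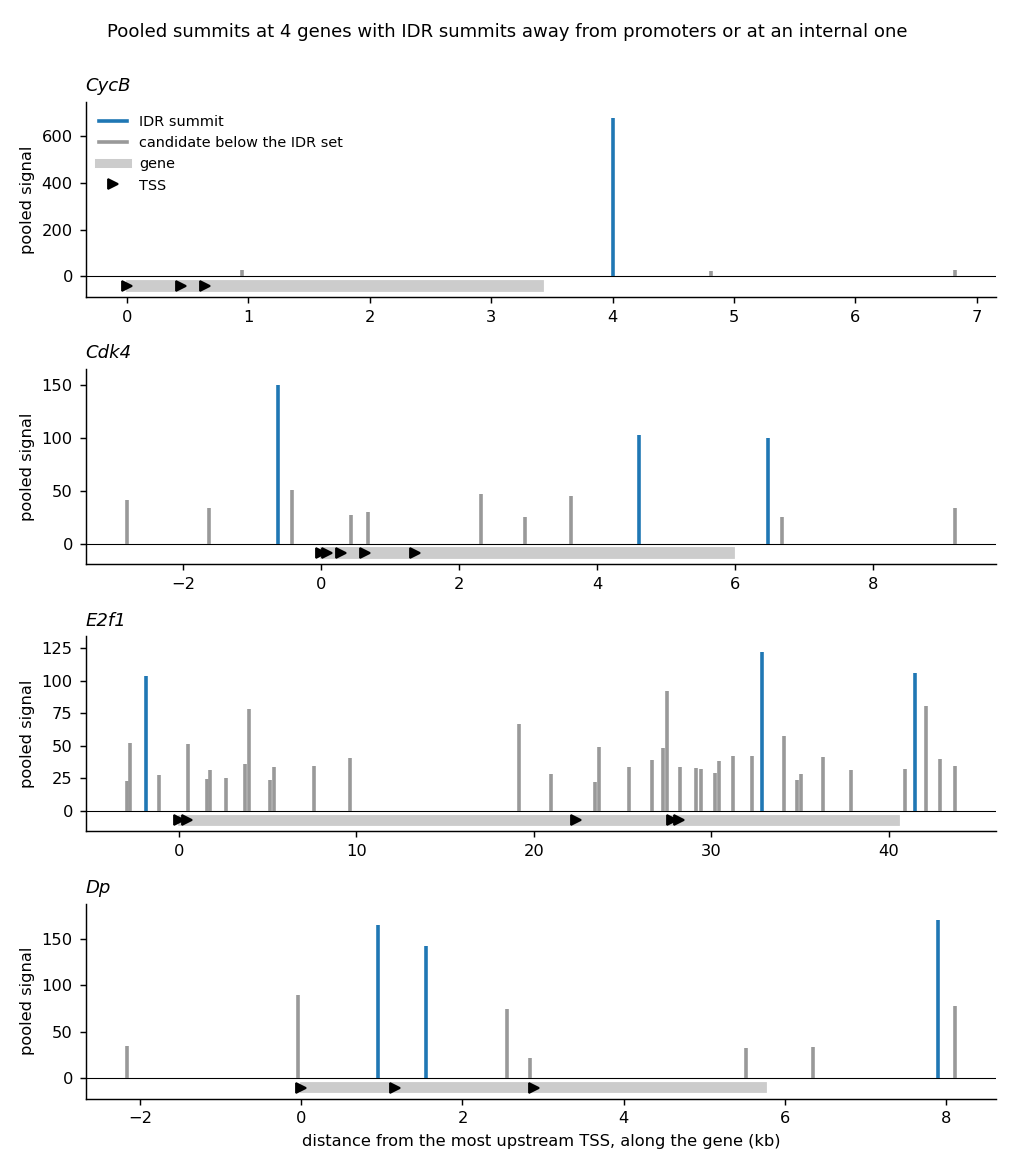
Pooled signal (the authors' score) of every pooled summit at and near CycB, Cdk4, E2f1 and Dp, against distance from the most upstream start along the gene (kb). Blue lines are IDR summits, grey lines weaker entries, grey bars the genes and arrowheads the starts. The CycB peak of 678.3 stands past the end of the gene, and the Dp peaks stand on both sides of an internal start.

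E2F sites and other short sequence elements were then looked for as letters, on both strands, from 250 bp before to 50 bp after every start. The E2F letters TTTCGCGC, TTTGGCGC, TTTCCCGC or TTTGCCGC were found at 15 of the 38 genes (39.5%), against 8.72% of all genes, and at 9 of the 13 licensing genes (69.2%). The 6 mitotic genes and the 4 E2F pathway genes had none. Listed genes with an IDR promoter peak held them in 5 of 12 cases (41.7%), against 12.1% of all genes with such a peak (267 of 2202), and those without in 10 of 26 (38.5%). Orc4, Orc5 and Orc6, with no entry at the promoter, each held one. A match is a run of letters and not a bound site.

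Other elements differed less. The DNA replication-related element (DRE), TATCGATA, was found at 7 of the 38 genes (18.4%), against 10.2% of all genes. Of the 12 listed genes with an IDR promoter peak, 1, BubR1, held it (8.33%), against 16.8% of all genes with such a peak (369 of 2202). These 12 genes are too few to show a difference. The inner letters of the DRE, CGATA, which every DRE contains, were found at 60.5% of the 38 genes, against 53.1% of all genes. The M1BP letters GGTCACACT were found at 15.8%, against 6.78%, the E-box CACGTG at 2.63%, against 5.34%, and the letters GAGA at 76.3%, against 79.6%.

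**Figure D5:**
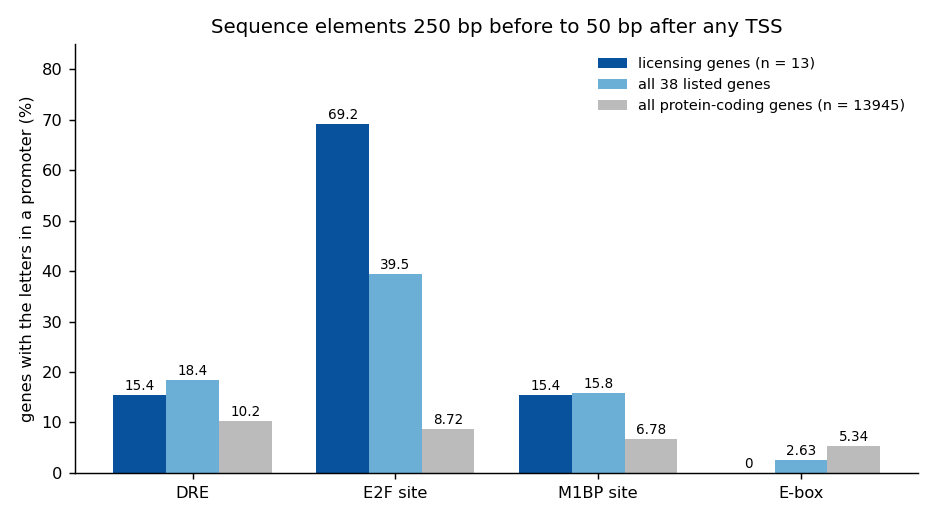
Share of genes (%) with each element, on either strand, from 250 bp before to 50 bp after any TSS, for the 13 licensing genes, all 38 listed genes and all 13945 protein-coding genes. The E2F letters stand at 69.2%, 39.5% and 8.72%.

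Within 50 bp of the 14 IDR promoter summits, E2F letters were found at dpa and dup, 12 and 37 bp from the summit, which is 14.3% of the windows, against 1.84% of the 1687 for all genes. The 40 weaker promoter entries of the listed genes held 0, beside 2.12% of the 6889 such entries of all genes, a share too low for 40 windows to show a difference. No window of the 14 held a DRE, against 4.62% of the 1687, and CGATA was found at Mcm5 and polo (14.3%, against 24.5%). GAGA was found in 2 of the 14 (14.3%), against 34.9% of the 1687. Only CycB3 held the M1BP letters (7.14%, against 1.84%). With 14 windows, 1 match is 7.14%.

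E2F letters at genes with weak promoter entries can be read in the promoters of CycE and stg, in dm6 from the RefSeq FASTA. The CycE runs are at chr2L:15746701-15746740 and chr2L:15746678-15746717 and the stg run at chr3R:29255801-29255829, all on the minus strand. They are printed 5′ to 3′ with the E2F letters, or their reverse complement, in capitals. These genes were chosen because they time entry into S phase and mitosis and yet their promoter entries ranked low.
CycE outer site: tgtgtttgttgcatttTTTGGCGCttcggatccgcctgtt
CycE inner site: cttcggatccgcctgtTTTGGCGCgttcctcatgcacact
stg site: cggtataaaagctcgcGCGCCAAAatcag

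The CycE sites lay 110 and 87 bp upstream of the nearest start and 296 and 319 bp from the nearest pooled summit, and the stg site lay 9 bp upstream of the start and 68 bp from a summit of rank 14753.

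A wider list of cell cycle genes outside the 38 gave another picture for the IDR set. Of 93 matched genes, 13 (14.0%) had an IDR promoter peak, against 15.8% of all genes, a share near that background. Entries of the pooled list were again common, at 74 (79.6%, against 50.3% of all genes), while the 4000 strongest entries covered 21 (22.6%, against 19.3% of all genes). The strongest was at Rca1, an inhibitor of the fzr form of the anaphase-promoting complex, with 469.6 (rank 142) in the pooled list, 244.8 (rank 151) in replicate 2 and 243.8 (rank 135) in replicate 3. Next came Cdc16, a subunit of that complex, with 239.4 (rank 611).

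The remaining peaks of the wider list were weaker. They included tefu (150.6), the fly ATM checkpoint kinase, and Prim1 (143.2), a subunit of primase. Sse, the separase, had 140.4, Rbf2, the second retinoblastoma protein, 132.7, and Cdc7, the kinase that fires licensed origins, 120.6. SAK, the centriole kinase, had 111.1, PolE1, the polymerase epsilon subunit, 111.0, and SMC1, a cohesin subunit, 109.7. By group, beside the 15.8% of all genes, the peaks fell at 3 of 14 genes of the anaphase-promoting complex and mitotic exit, 3 of 8 checkpoint kinases and their partners, and 2 of 7 genes of cohesin and chromatid separation. They fell at 2 of 19 genes of polymerases and the fork, 1 of 11 of origins and the helicase, and 1 of 6 of the E2F and Myb complex. Of the passenger complex and kinetochore genes, grouped with SAK, the peaks fell at 1 of 8. That gene was SAK itself, so no passenger complex or kinetochore gene had one. The 8 other spindle checkpoint genes, the 7 partners of CDKs and the 5 SCF ubiquitin ligase genes had 0. The peaks of Cdc16, tefu, Prim1, Rbf2, Cdc7 and SAK also lay within 500 bp of another gene's start.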

How the data were processed

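The authors deposited narrowPeak lists, on dm3 and dm6, from 2 samples of CG4854-eGFP ChIP-seq. Per the labels, chromatin was sheared by sonication. Per the text deposited with the files, each replicate's list comes from its own alignments with a control shared by both, the pooled list from both replicates, and the IDR set from these 3 lists. The aligner, peak caller, IDR threshold and read depth were not given in the sources used here. Each deposited peak has a signal score of the authors and a summit offset. The deposited score is comparable within a list only.

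Only the dm6 lists were used. The dm3 lists were left out because no dm3 annotation was used here. Summits (start plus offset) were set against the starts of protein-coding transcripts of Ensembl release 115 (BDGP6 version 54), within 500 bp, or elsewhere in the gene. A replicate entry was matched to a pooled summit within 100 bp, and otherwise the strongest entry at the promoter is given. Each replicate was also read at its 3106 strongest entries. Sequence came from the RefSeq Release 6 FASTA. The 38 genes, their roles, the wider list of 94 names (93 matched) and the motifs were chosen with earlier results of these data known. All 38 genes are named, as are up to 10 genes of the wider list with an IDR promoter peak, by signal. No test was used, since there is 1 group. The procedure was tested on simulated lists with planted summits. Python 3.11.15, pandas 2.3.3, numpy 2.4.6 and matplotlib 3.10.9 were used. There were 9 alternatives for each count, and 1 more added after seeing the data.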

Additional observations from a re-analysis of the deposited data

How the results depend on the processing

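Of the counts recomputed under each setting, 49 stayed within 1.5 times the value reported and 10 did not. With the 1553 strongest IDR peaks alone, listed genes with a promoter peak numbered 5 in place of 12 (13.2%, against 8.79% of all genes). Cyclins and kinases numbered 0 in place of 4 and mitotic genes 1 in place of 2, beside the same 8.79%. Genes with a peak elsewhere numbered 0 in place of 2, against 3.01% of all genes. With 1 start per gene, genes with a peak elsewhere numbered 4 (10.5%, against 6.58% of all genes), where CycG and Dp joined. Listed genes with a promoter peak then numbered 10 (26.3%, against 13.7% of all genes). With each peak given to the nearest start, genes with a peak elsewhere numbered 1 (2.63%, against 4.09%), where Cdk4 dropped out. Without replicate 2, listed genes with a promoter peak numbered 9 (23.7%, against 15.3% of all genes). Without replicate 3 they numbered 14 (36.8%, against 16.5%). Licensing genes numbered 3 to 6, cyclins and kinases 2 to 3 and mitotic genes 2 to 3, beside the same shares of all genes. Genes with an entry at the promoter numbered 32 without replicate 2 (against 52.6% of all genes) and 33 without replicate 3 (against 50.1%). Genes with a peak elsewhere numbered 2 each time (against 5.43% and 5.28% of all genes), but without replicate 3 Cdk4 dropped out and CycE joined. The licensing count of 6 rests on replicate 2 alone, which adds geminin, Orc2 and Mcm2. With the 4000 strongest pooled entries, a limit added after seeing the data, listed genes numbered 19 and licensing genes 7. No paired analysis was possible because all samples belong to 1 group. Read depth is unknown, so no counting interval is given, and a gene with no entry cannot be called unbound. Mock precipitations were not analysed here.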

Other observations

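Short sequences more common in the IDR set were looked for after seeing the data, among 8-mers in at least 1% of IDR windows. The 10 with the highest ratio of their share of IDR windows to that of weaker windows were taken. Promoter windows of the listed genes were left out of both. The higher share of each in the IDR windows was thus fixed by the choice. Any of the 10 was found in 3 of the 14 promoter windows of listed genes (21.4%), against 15.4% of the 1687 windows of all genes, so dpa, dup and Rbf held one and the other 9 genes did not. CAACACTG, in the windows of dup and Rbf, stood in 2.39% of the IDR windows and 0.644% of the weaker ones, and CAGCACTG, in that of dpa, in 1.71% and 0.506%. AACTATCG, in 1.88% and 0.525%, was held, in its reverse complement, by the weaker Mcm5 summit and by no IDR promoter summit of a listed gene. Among the genes ranked between 3107 and 4000, only geminin held any of the 10 at its strongest entry, CAACACTG and GTGTTGGA. None of the 10 was found in more than 2 of the 14 windows.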
